A study of Gallus gallus with 9 samples.

Results

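The 5 genes NPY, CHODL, AKR1D1, LRRC17 and WSCD2 were chosen by their signal, which differed between the lower and the upper bud of the first pharyngeal arch of the chicken embryo, the mandibular and the maxillary prominence. All probe sets that the platform annotation assigns to them were taken, which gave 7 of the 38439 probe sets tested and 5 of the 13051 genes measured. NPY, AKR1D1 and LRRC17 have 1 probe set each, and CHODL and WSCD2 have 2 each. Since mandibular and maxillary signals chose these genes, the difference between those prominences is given below as a description with no test. What that choice left free is where the frontonasal mass lies. Its difference from the mean of both arch prominences was tested.

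All samples came from untreated embryos with the genotype recorded as unknown, incubated at 38 °C to Hamburger Hamilton stage 18. The lower jaw grows from the mandibular prominence, the middle of the upper beak from the frontonasal mass, and the rest of the upper jaw from the maxillary prominence. Each prominence was sampled as mesenchyme together with its epithelium, in 3 pools of 26 to 32 pieces that are called biological replicates, and each pool was hybridised to 1 Affymetrix array. No cell type was separated, so a lower signal cannot be told apart as fewer cells that express a gene or less RNA per cell.

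Between 49.2% and 53.3% of probe sets lay above background on the 9 arrays, and signals were scaled to the same median. Of 9 mesenchyme markers 8 or 9 were above background on every array, as were 8 or 9 of 9 epithelium markers. Frontonasal pool 2 stood apart in some markers of other tissues. The summed signal of 15 genes of liver and other viscera was 7264 there against 1813 to 2210 on the other 8 arrays. Fibrinogen beta (FGB) reached 2274 there against 49 and 50 in the other frontonasal pools. TTR (1686) and FGG (580) were also highest in that pool. Other genes of the list did not rise. ALB (55.4), APOB (30.7), HNF4A (20.1) and TF (1235) lay there within the range of the other arrays, and SPIA1 (70.5) was lowest there. The tested difference of each of the 5 genes is therefore also given without frontonasal pool 2. In the tested frontonasal comparison 5.1% of all genes, each by its brightest probe set, were called at a limma adjusted p under 0.05. Of the 9 mesenchyme markers 5 were called lower and none higher. Among them were TWIST2 (-1.76, limma adjusted p = 0.0016) and PRRX1 (-1.13, limma adjusted p = 0.00254). PRRX2, MSX1 and MSX2 were the others. MSX2 was called lower with means of 952 mandibular, 174 maxillary and 198 frontonasal, so its frontonasal mean was above the maxillary one. PRRX2 had 262, 535 and 226 and MSX1 had 741, 423 and 351 in the same order. For PRRX2, MSX1 and MSX2 the gap between the arch prominences enters the call. TWIST1 (-0.11), COL3A1 (-0.24), COL1A2 (0.17) and PDGFRA (0.19) were not called. The frontonasal pools of COL3A1 scattered widely, at 883 ± 1104 (SD, n = 3), so nothing is read from its missed call. Of the 9 epithelium markers 4 were called higher, such as CDH1 (0.97, limma adjusted p = 0.0107), and 1 lower, KRT14 (-0.82, limma adjusted p = 0.00741). Of 11 endothelium markers 3 were called lower, CD34 (-1.23), SOX18 (-1.01) and CDH5 (-1.08, limma adjusted p = 0.0015, 0.00223 and 0.0253). The part of these differences in tissue markers in the frontonasal values of the 5 genes was not tested.

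The genes belong to different systems. NPY encodes neuropeptide Y, a peptide that neurons of the brain and the sympathetic system secrete and that acts through G protein coupled receptors, with a known role in feeding in birds and mammals. LRRC17 encodes a secreted protein with leucine-rich repeats that in mouse cells restrains the formation of osteoclasts. CHODL encodes chondrolectin, a membrane protein with a C-type lectin domain that is known in zebrafish and mouse motor neurons. WSCD2 encodes a membrane protein with a WSC domain and a region resembling sulfotransferases. AKR1D1 encodes the aldo-keto reductase that reduces the A ring of steroids on the way to bile acids in the liver.

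In the mandibular prominence NPY, CHODL and AKR1D1 were high, and LRRC17 and WSCD2 were low, as the choice of the genes demands. The frontonasal mass did not take the same place for all of them. It lay below both arch prominences for NPY, beside the maxillary prominence for CHODL, LRRC17 and WSCD2, and nearer the mandibular prominence for AKR1D1. For AKR1D1 only frontonasal pool 2 fell within the mandibular range. The frontonasal mass differed from the mean of both arch prominences for 3 of the 5 genes in limma's test, with NPY and CHODL lower and WSCD2 higher. In this comparison 3.2% of all probe sets (1.75% higher and 1.45% lower) and 5.1% of all genes, each by its brightest probe set, were called at an adjusted p under 0.05. A gene whose frontonasal signal equals the maxillary one still differs from this mean if its mandibular signal is apart, so CHODL and WSCD2 are called although their frontonasal and maxillary pools overlap. The 5 genes were chosen for a gap between the arch prominences, so the share of all genes called is not a like background for them.

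**Figure D1:**
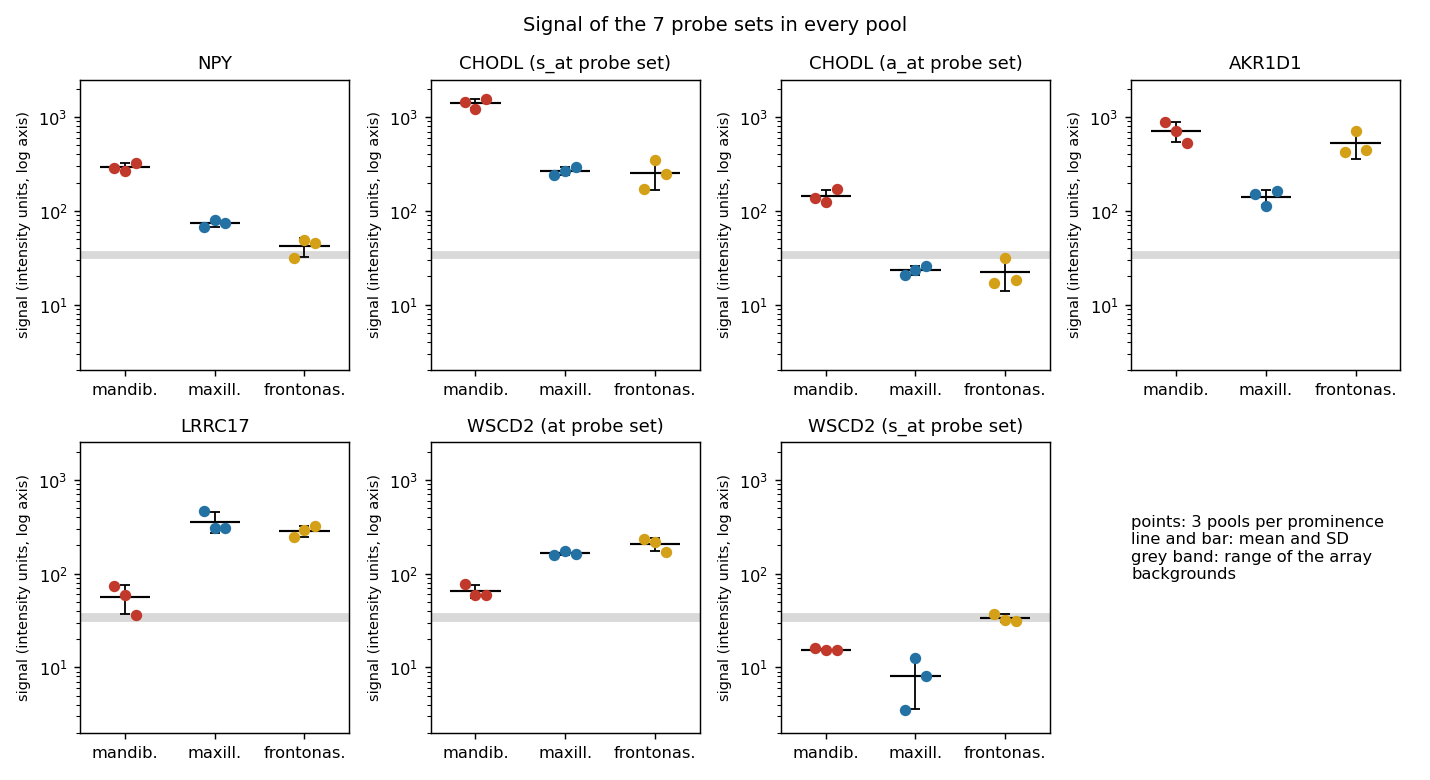
Signal of the 7 probe sets in each of the 3 pools of the mandibular, maxillary and frontonasal prominences, in intensity units on a log axis, with the mean and SD as a line and bar and the array backgrounds as a grey band. NPY is highest in the mandibular pools and lowest in the frontonasal pools, AKR1D1 is low in the maxillary pools alone, and LRRC17 and the brighter WSCD2 probe set are low in the mandibular pools alone.

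NPY was brightest in the mandibular prominence and dimmest in the frontonasal mass. Its signal was 286.6, 264.7 and 321.9 in the mandibular pools, 67.4, 79.5 and 73.6 in the maxillary pools, and 31.2, 49.4 and 45.7 in the frontonasal pools. The groups did not overlap at either step, although frontonasal pool 1 was not above its background. The means were 291.1 ± 28.9 (SD, n = 3) in mandibular, 73.5 ± 6.01 in maxillary and 42.1 ± 9.60 in frontonasal pools. By geometric means the mandibular signal was 3.96-fold the maxillary one and 7.03-fold the frontonasal one, and the maxillary signal was 1.78-fold the frontonasal one.

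On the log2(signal + 16) scale, which understates the changes of dim genes, NPY in the frontonasal mass was below the mean of the arch prominences (-1.52 ± 0.12 SE, limma adjusted p = 0.000327). All 3 frontonasal pools were below all 6 arch pools, which held for 3.88% of all probe sets. Without frontonasal pool 2 the difference was -1.62 (limma adjusted p = 0.000759).

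Other genes of the peptide's system were read beside NPY. Of 12 measured genes for related peptides, their receptors and the proteases that process them, 8 were above background on at least 1 array. By limma none was called between mandibular and maxillary pools, where 2 had an unadjusted p under 0.05. The share of all genes under that unadjusted threshold is not set beside such counts, here and below, so nothing is read from them. Of all probe sets 0.263% were called between mandibular and maxillary pools. A short list with no call is near that share, so nothing is read from its lack of calls either, here and below. In the frontonasal comparison, where 5.1% of all genes were called, 1 of the 12 was called. That gene was DPP4, a surface protease that trims NPY, and it rose in the frontonasal mass. Its mean signals were 99.5 mandibular, 143.9 maxillary and 330.9 frontonasal (difference 1.35 ± 0.11 SE, limma adjusted p = 0.000534). The receptor genes NPY2R, at 80.2, 77.4 and 82.4, and NPY5R, at 120.5, 132.2 and 135.9 in the same order, were not called, and NPY1R and NPY7R were below background in all prominences. The median difference of the 12 genes in the frontonasal comparison was 0.00, as over all genes.

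LRRC17 had the largest decrease in mandibular against maxillary pools of all 38439 probe sets. Its signal was 74.3, 59.2 and 35.8 in the mandibular pools, 461.6, 306.0 and 307.2 in the maxillary pools, and 242.9, 292.1 and 318.3 in the frontonasal pools. The mandibular pools lay apart from all others, and the maxillary and frontonasal pools overlapped. By geometric means the maxillary signal was 6.5-fold and the frontonasal signal 5.23-fold the mandibular one.

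The maxillary minus frontonasal difference of LRRC17 was 0.30 ± 0.23 (SE) on the log2 scale, with a 95% interval from -0.22 to 0.82. Against the mean of the arch prominences the frontonasal mass differed by 0.89 ± 0.20, which missed the threshold (limma adjusted p = 0.0531). That call is at the edge. It was made without mandibular pool 1 (limma adjusted p = 0.0446) and without maxillary pool 1 (0.0374), and not without frontonasal pool 2 (0.87, limma adjusted p = 0.132).

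Among 26 measured genes for other secreted or membrane proteins with leucine-rich repeats and for osteoclast regulation, 20 were above background on at least 1 array. By limma none was called between mandibular and maxillary pools, and 4 had an unadjusted p under 0.05. In the frontonasal comparison, where 5.1% of all genes were called, 1 was called higher and 3 lower. LRIG3, a membrane modulator of receptor tyrosine kinases, fell from 864 mandibular and 794 maxillary to 268 in the frontonasal mass (-1.61 ± 0.16 SE, limma adjusted p = 0.00111). SLITRK6, a neuronal membrane protein, had 28.4, 70.4 and 8.80 and fell as well (-1.34, limma adjusted p = 0.0101). It was above background on 1 mandibular array, on all maxillary arrays and on no frontonasal array. FLRT3, a membrane adhesion protein, was higher by 0.45 (limma adjusted p = 0.0233) and LRRC32, which binds latent TGF beta, was lower by 0.78 (log2 difference -0.78, adjusted p = 0.034). FLRT3 lost its call in 7 and LRRC32 in 8 of the 16 alternative fits, at adjusted p of up to 0.0827 and 0.11. The list's median was -0.01 in the frontonasal comparison and -0.06 between mandibular and maxillary pools, against 0.00 and 0.01 over all genes.

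CHODL was bright in the mandibular prominence and dimmer in the others. Its brighter probe set gave 1437, 1219 and 1546 in the mandibular pools, 239.2, 264.5 and 291.2 in the maxillary pools, and 169.9, 349.2 and 248.0 in the frontonasal pools. The mandibular pools lay apart from the other 6, and the maxillary pools fell within the frontonasal range. By geometric means the mandibular signal was 5.28-fold the maxillary and 5.69-fold the frontonasal one. The maxillary minus frontonasal difference was 0.10 ± 0.22 (SE), with a 95% interval from -0.41 to 0.60, and its sign was not settled, at 0.34 without frontonasal pool 2 and -0.15 without frontonasal pool 1.

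Against the mean of the arch prominences, CHODL in the frontonasal mass was lower (-1.26 ± 0.19 SE, limma adjusted p = 0.00969). Without frontonasal pool 2 the value was -1.50 (limma adjusted p = 0.0026). The high mandibular signal that chose CHODL raises that mean, so the call does not set the frontonasal mass below the maxillary prominence. The dimmer CHODL probe set gave 138.5, 125.4 and 170.4 in mandibular pools and was not above background in any maxillary or frontonasal pool. Its mandibular signal was at least 4.11-fold the maxillary and at least 4.28-fold the frontonasal one, where a signal below the background of its array was set to that background. The dimmer probe set thus gave no order between maxillary and frontonasal pools. It was also called in the frontonasal comparison (-1.08 ± 0.14 SE, limma adjusted p = 0.00427, and -1.25 with 0.00172 without frontonasal pool 2). The high mandibular signal enters that call as well.

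Of 16 measured genes for other C-type lectins, collectins and hyaluronan binding proteins, 13 were above background on at least 1 array. By limma none was called between mandibular and maxillary pools. Of the 16, 6 had an unadjusted p under 0.05, a count with no share over all genes beside it. Without frontonasal pool 2, COLEC11, a secreted collectin, was called (1.75, limma adjusted p = 0.00376), and without frontonasal pool 1 so was HAPLN1, a link protein of the matrix (0.91, limma adjusted p = 0.0167). COLEC12, a scavenger receptor with a collectin domain, rose in the frontonasal mass, with mean signals of 902 mandibular, 756 maxillary and 2111 frontonasal (1.34 ± 0.08 SE, limma adjusted p = 7.6e-05). CLEC3B, which encodes tetranectin, fell there. Its means were 75 and 64.7 in the arch prominences and 20.9, below background, in the frontonasal mass (-1.21 ± 0.10 SE, limma adjusted p = 0.000426). The list's medians were 0.11 in the frontonasal comparison and 0.12 between mandibular and maxillary pools, against 0.00 and 0.01 over all genes.

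WSCD2 was lowest in the mandibular prominence by its brighter probe set. The signals were 76.6, 58.6 and 58.7 in mandibular pools, 158.4, 174.2 and 162.2 in maxillary pools, and 231.0, 215.8 and 170.3 in frontonasal pools. The mandibular pools lay below all others, and the lowest frontonasal pool fell between maxillary pools. By geometric means the maxillary signal was 2.57-fold and the frontonasal signal 3.18-fold the mandibular one. The maxillary minus frontonasal difference was -0.28 ± 0.13 (SE), with a 95% interval from -0.58 to 0.01. The frontonasal mass was higher than the mean of the arch prominences (0.87 ± 0.11 SE, limma adjusted p = 0.00446). It remained so without frontonasal pool 2 (0.83, limma adjusted p = 0.0186). The low mandibular signal that chose WSCD2 lowers that mean, so the call does not set the frontonasal mass above the maxillary prominence.

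The other WSCD2 probe set was above background on 1 of 9 arrays, frontonasal pool 1. It gave 15.9, 15.2 and 15.3 in mandibular pools, 3.55, 12.6 and 8.18 in maxillary pools, and 37.3, 32.2 and 31.5 in frontonasal pools. Between mandibular and maxillary pools it went the opposite way from the brighter probe set, by 0.40 ± 0.13 (SE) on the log2 scale, but both groups were below background. Its frontonasal pools lay above all 6 arch pools, which held for 4.53% of all probe sets, and the difference was 0.86 ± 0.11 (limma adjusted p = 0.00512, and 0.88 with 0.0164 without frontonasal pool 2). With 8 of its 9 signals not above background, this probe set gives no order of the prominences.

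WSCD1, the paralog of WSCD2, had means of 85.6, 86.5 and 90.5 in mandibular, maxillary and frontonasal pools and was not called. It was 1 of 46 measured genes for sulfotransferases and sialic acid metabolism, of which 38 were above background on at least 1 array. By limma none was called between mandibular and maxillary pools, where 3 had an unadjusted p under 0.05. Of all genes 5.1% were called in the frontonasal comparison, and of the 46 genes 2 were, both higher. These were the sialyltransferases ST3GAL1, at 315.8, 286.7 and 482.7 (0.64 ± 0.11 SE, limma adjusted p = 0.0148), and ST6GAL1, at 70.4, 68.7 and 117.8 (0.64 ± 0.10 SE, limma adjusted p = 0.0104). The call of ST3GAL1 was not made without frontonasal pool 1 (limma adjusted p = 0.0668). The list's medians were -0.02 and 0.01.

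AKR1D1 had a different order from the other 4 genes, with its low signal in the maxillary prominence. Its signal was 878.1, 711.0 and 534.5 in mandibular pools, 150.4, 112.8 and 160.9 in maxillary pools, and 419.5, 715.7 and 441.2 in frontonasal pools. The maxillary pools lay below all others, and mandibular and frontonasal pools overlapped. The mandibular and frontonasal pools scattered widely, with a mandibular mean of 707.8 ± 172 (SD, n = 3) and a frontonasal mean of 525.5 ± 165, against 141.4 ± 25.3 in maxillary pools. By geometric means the mandibular signal was 4.96-fold and the frontonasal signal 3.65-fold the maxillary one, and mandibular was 1.36-fold frontonasal.

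The mandibular minus frontonasal difference of AKR1D1 was 0.43 ± 0.24 (SE), with a 95% interval from -0.12 to 0.99, and 0.67 without frontonasal pool 2. That pool, in which FGB and some other visceral genes were high, also had the highest frontonasal AKR1D1 signal. The visceral sums of frontonasal pools 1 and 3 were 1817 and 2210. Whether visceral tissue was part of the AKR1D1 value was not tested. Against the mean of the arch prominences the frontonasal difference was 0.66 ± 0.21, which was not called (limma adjusted p = 0.166), nor was it without frontonasal pool 2 (0.42, limma adjusted p = 0.362).

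Other genes of steroid and bile acid metabolism were read beside AKR1D1. Of 35 measured genes 22 were above background on at least 1 array. By limma none was called between mandibular and maxillary pools, where 3 had an unadjusted p under 0.05. Of all genes 5.1% were called in the frontonasal comparison, and of the 35 genes 2 were. SRD5A3, a reductase needed for dolichol synthesis, rose in the frontonasal mass, with means of 635.8, 826.6 and 1320 (0.85 ± 0.10 SE, limma adjusted p = 0.00286). The second was CYP17A1, a steroid hydroxylase, which was below background in all prominences (0.78, limma adjusted p = 0.0109). The mean signals of CYP7A1, the rate-limiting enzyme of bile acid synthesis, were 21.1, 33.9 and 30.4. They were above background on 1 maxillary array and on no other array. The list's medians were -0.02 in the frontonasal comparison and 0.01 between mandibular and maxillary pools.

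**Figure D2:**
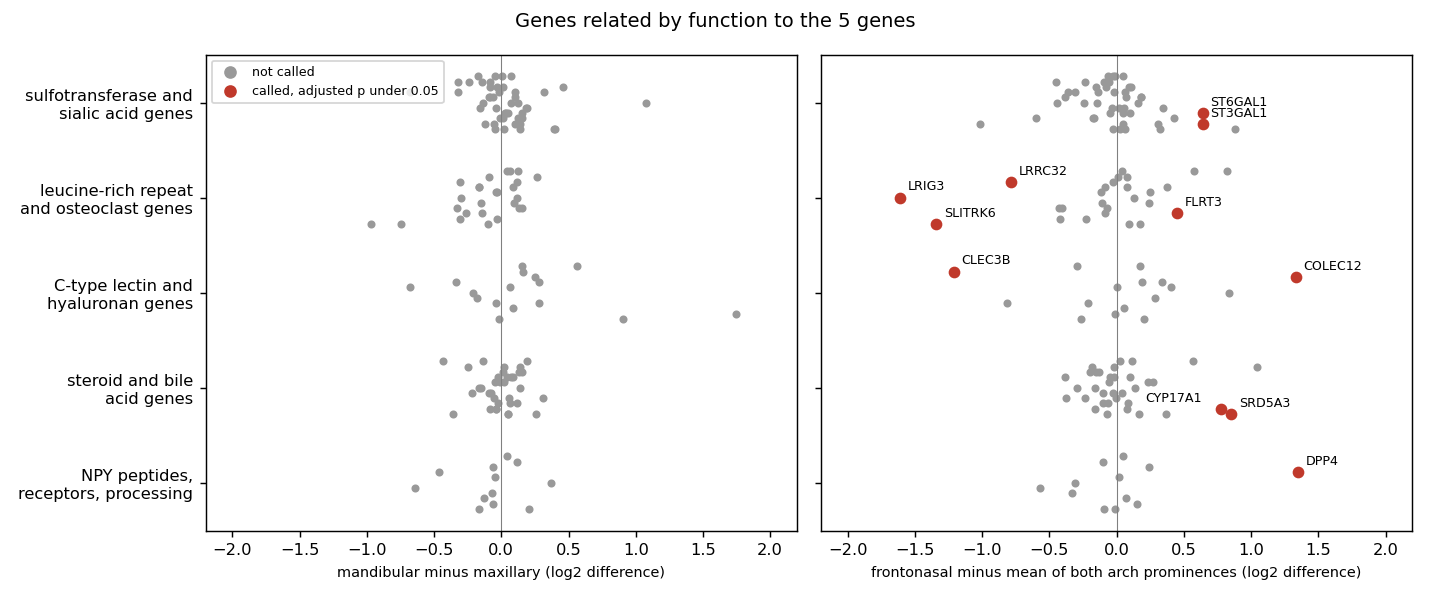
Log2 differences of the genes in the 5 lists of related function, with the 5 chosen genes left out, between mandibular and maxillary pools (left) and between the frontonasal mass and the mean of both arch prominences (right). Each point is 1 gene and red points passed the test. No gene is red on the left, and 11 are red on the right, 7 of them higher and 4 lower in the frontonasal mass. Of all probe sets 0.263% were called in the comparison on the left, and of all genes 5.1% in that on the right.

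Without frontonasal pool 2, 9 of these 11 calls were made as well, at adjusted p of up to 0.0449 for ST3GAL1 (0.55). FLRT3 (0.39, limma adjusted p = 0.0734) and LRRC32 (-0.80, limma adjusted p = 0.0853) were not called without it.

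Ranked by the mandibular minus maxillary difference that chose them, LRRC17 was 1st and WSCD2 11th among genes lower in the mandibular prominence. CHODL was 6th, AKR1D1 8th and NPY 13th among genes that were higher. In that comparison 0.263% of all probe sets were called, 0.172% higher and 0.0911% lower in mandibular pools, and 7.44% had all mandibular above all maxillary pools and 6.03% the reverse. The rule used that comparison, so nothing is read from these shares. The log2 differences were 2.33 ± 0.22 (SE) for CHODL, 2.19 ± 0.24 for AKR1D1, 1.78 ± 0.14 for NPY, -1.17 ± 0.13 for WSCD2 and -2.38 ± 0.23 for LRRC17. The differences from the frontonasal mass share these mandibular arrays. Mandibular minus frontonasal was 2.43 ± 0.22 for CHODL and 2.41 ± 0.14 for NPY, and it was -1.46 ± 0.13 for WSCD2 and -2.08 ± 0.23 for LRRC17. Maxillary minus frontonasal was 0.64 ± 0.14 for NPY and -1.75 ± 0.24 for AKR1D1.

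**Figure D3:**
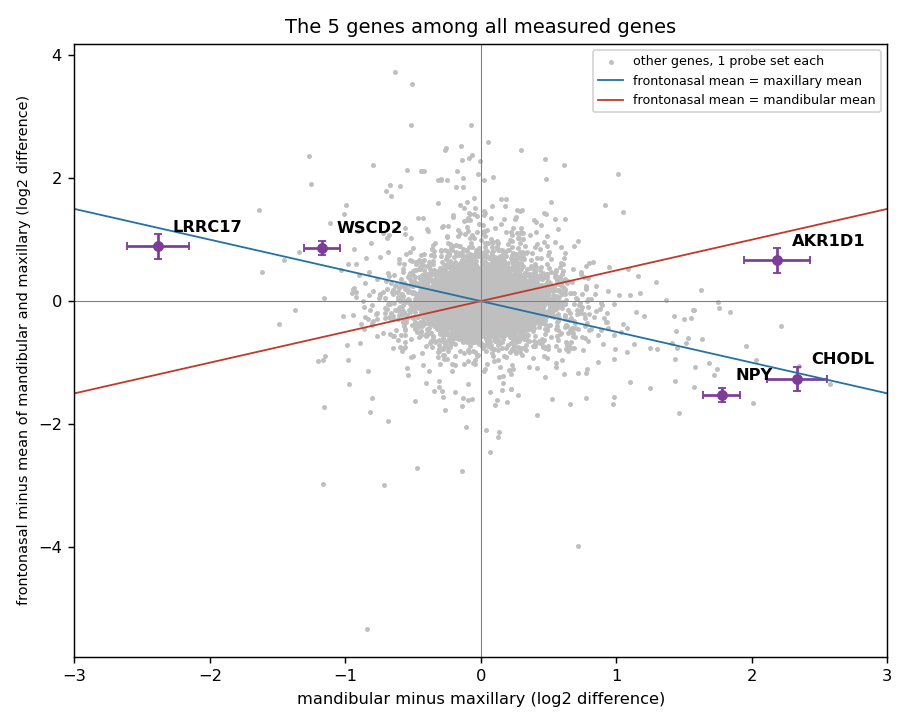
Each point is 1 gene by its mandibular minus maxillary log2 difference (x axis) and by the log2 difference of the frontonasal mass from the mean of both arch prominences (y axis), with SE bars for the 5 genes. On the blue line the frontonasal mean equals the maxillary mean, and on the red line it equals the mandibular mean. CHODL, LRRC17 and WSCD2 lie near the blue line, AKR1D1 lies near the red line, and NPY lies below the blue line.

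The genes whose profiles over the 9 arrays came closest were sought among 9632 genes above background on all arrays of at least 1 prominence. Likeness was the root mean square difference of log2 profiles after subtraction of each gene's mean, so that 0 is an identical shape. The 9 arrays are 3 groups of pools, and a close profile is a description. For comparison, the median distance over those genes was 1.04 for NPY, 1.15 for CHODL, 0.992 for AKR1D1, 1.10 for LRRC17 and 0.671 for WSCD2. These medians are near the distance of each gene from a flat profile, at 1.03, 1.15, 0.986, 1.09 and 0.645 in the same order. The choice of the genes for a large arch difference widens that distance. Any gene that shares the difference comes closer than the median, so nothing is read from that.

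NPY was closest to RET, the receptor tyrosine kinase for ligands of the GDNF family, at 0.211. RET had mean signals of 170.8 in mandibular, 47.0 in maxillary and 26.2 in frontonasal pools, the last above background on 1 of 3 arrays. EPHA3, an ephrin receptor, followed at 0.277, with 739.7, 258.4 and 115.1. CHODL itself came next at 0.293. By their means RET and EPHA3 thus had the same order of prominences as NPY.

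CHODL was closest to MSX2, a homeobox gene downstream of BMP signalling, at 0.168. MSX2 had mean signals of 951.7 in mandibular, 173.8 in maxillary and 198.3 in frontonasal pools. BHLHE22, a basic helix-loop-helix transcription factor, followed at 0.270, with 350.8, 45.1 and 42.4. CSRP3, which encodes a LIM protein of muscle, was at 0.282, with 82.9 in mandibular pools and signals below background in the other prominences. Like MSX2, CHODL was higher in frontonasal pool 2 than in pools 1 and 3.

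No gene came as close to AKR1D1 as RET did to NPY or MSX2 to CHODL. STMN2, a regulator of microtubules in neurons, lay at 0.435, with mean signals of 200.5 in mandibular, 52.9 in maxillary and 119.3 in frontonasal pools. HECW1, a ubiquitin ligase, lay at 0.495, with 416.3, 111.9 and 202.4. FGFR3, a fibroblast growth factor receptor, lay at 0.499, with 617.5, 160.5 and 321.1 ± 223 (SD, n = 3), so that its frontonasal pools scattered widely. All of them were lowest in the maxillary pools.

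LRRC17 was closest to EMILIN3, a glycoprotein of the extracellular matrix, and ALX1, a homeobox gene of frontonasal mesenchyme, both at 0.470. EMILIN3 had mean signals of 54.3 in mandibular, 173.9 in maxillary and 168.8 in frontonasal pools. ALX1 had 115.1, 395.7 and 635.3, so that its frontonasal mean was above its maxillary mean, unlike that of LRRC17. SOX10, a transcription factor of neural crest and glia, was at 0.487 with 65.3, 236.1 and 185.1.

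WSCD2 was closest to ADAMTSL1, a secreted protein of the ADAMTS-like family, at 0.167. ADAMTSL1 had mean signals of 55.2 in mandibular, 164.1 in maxillary and 184.9 in frontonasal pools. SFRP1, a secreted WNT antagonist, followed at 0.219 with 225.8, 462.7 and 504.3. TNMD, which encodes the tendon protein tenomodulin, was at 0.245, with 17, below background, in mandibular pools and 45.6 and 84.2 in the others. LRRC17 and WSCD2, which share the low mandibular signal by choice, were 0.573 apart, farther than each was from its nearest genes.

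How far these partners hold depends on the gene. Over 15 alternatives in processing or pools, ADAMTSL1 was the nearest gene to WSCD2 in 15, MSX2 to CHODL in 14, RET to NPY in 11 and STMN2 to AKR1D1 in 11. For LRRC17, EMILIN3 was nearest in 5, ALX1 in 7 and SOX10 in 3. Less steady were EPHA3 and CHODL beside NPY, FGFR3 beside AKR1D1 and TNMD beside WSCD2, each among the nearest 3 in 9. On the 6 arch arrays alone, none of the 3 nearest genes of NPY was among its nearest 3 (0 of 3).

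**Figure D4:**
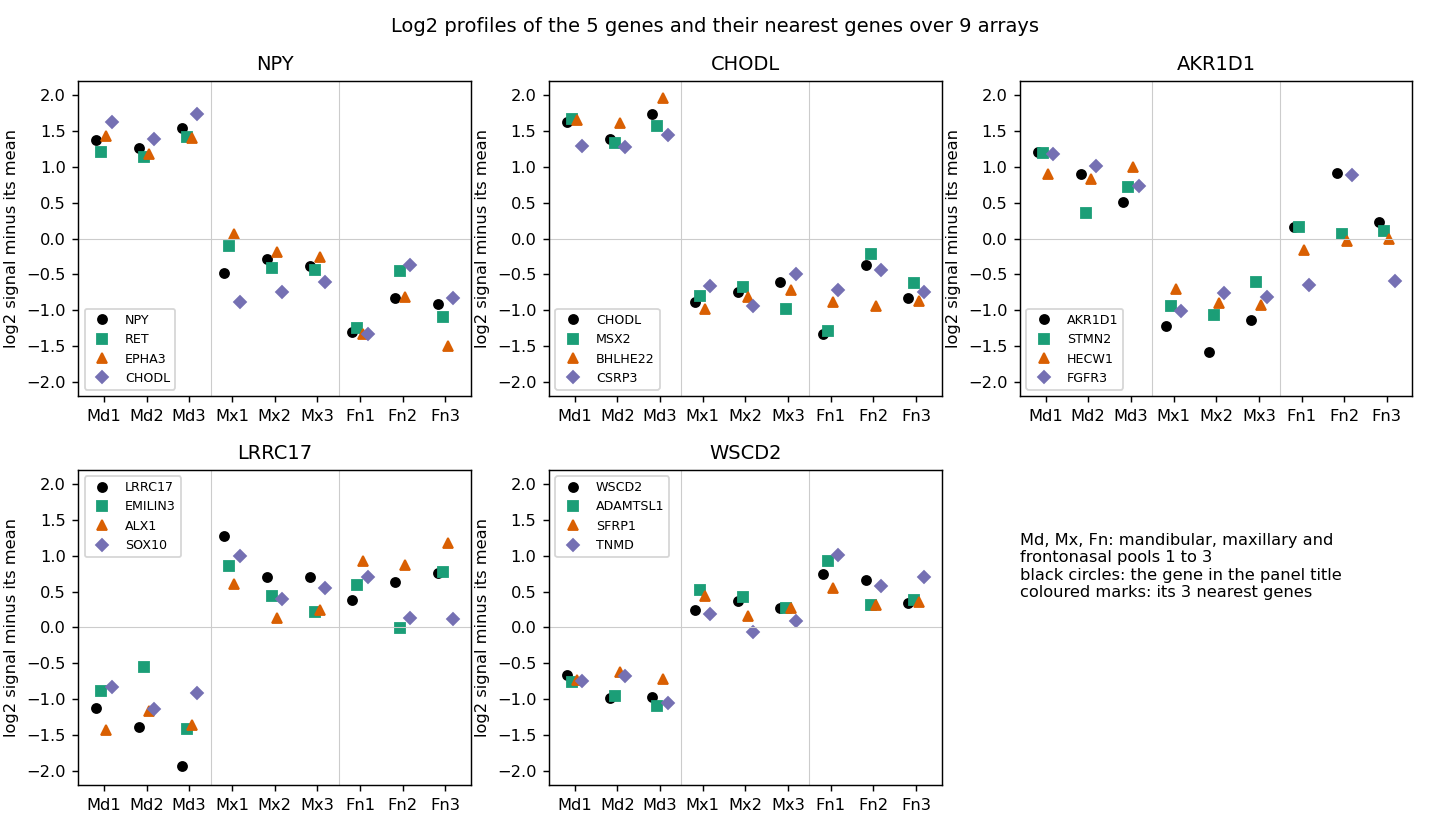
Log2 signal of each of the 5 genes (black) and its 3 nearest genes (coloured) on the 9 arrays after subtraction of each gene's mean, with mandibular pools (Md), maxillary pools (Mx) and frontonasal pools (Fn) along the x axis. The marks nearly coincide for WSCD2 with ADAMTSL1 and for CHODL with MSX2, and scatter most around AKR1D1 and LRRC17.

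The neighbours of the 5 genes on the chromosome were read in the same way. The nearest protein-coding genes in the RefSeq gene table, 2 on each side, made 20 neighbours of which 18 were measured. By limma none of these was called between mandibular and maxillary pools, and 2 had an unadjusted p under 0.05. C21orf91 beside CHODL had means of 1002, 926 and 831 in mandibular, maxillary and frontonasal pools. TRIM24 beside AKR1D1 had 120, 120 and 124, and PTPN11 near WSCD2 had 216.5, 218.6 and 228.8. NAPEPLD, near LRRC17, had 667, 673 and 514.

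In the frontonasal comparison, where 5.1% of all genes were called, 2 of the 18 neighbours were called. MPP6, a membrane scaffold protein next to NPY, was lower in the frontonasal mass, with means of 607.5, 493.7 and 394.6 (-0.46 ± 0.09 SE, limma adjusted p = 0.0328). This call was lost in 9 of 16 alternative fits, at an adjusted p of up to 0.104 (without frontonasal pool 2). FBXL13, which overlaps LRRC17 in the gene table, was below background on all 9 arrays, at 12.2, 17.1 and 25.3, although its difference passed (0.44 ± 0.08 SE, limma adjusted p = 0.0176). That call was not made without frontonasal pool 1 (0.0685) or pool 3 (0.0628), nor with limma's trend and robust options (0.0692).

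Since NPY and CHODL are known in neurons, markers of neurons were read beside them. The summed signal of 6 motor neuron genes was 701 to 721 in mandibular pools and 226 to 277 in maxillary pools, and 191, 628 and 154 in frontonasal pools 1, 2 and 3. Above background were 5 of the 6 on every mandibular array, 2 or 3 on maxillary arrays and 3 or 4 on frontonasal arrays. ISL1, a LIM homeobox gene of motor neurons that other tissues also express, made up most of it in the mandibular pools, with 492, 502 and 499 in mandibular, 115, 123 and 99 in maxillary, and 39, 461 and 4 in frontonasal pools. SLC5A7, the choline transporter, was higher in the mandibular pools. It was the 1 gene of the 6 called between mandibular and maxillary pools (1.41, limma adjusted p = 0.0322), where 0.263% of all probe sets were called. The ISL1 difference was 2.01 ± 0.93 (SE) and was not called (limma adjusted p = 0.725). That SE rests on 1 spread over all 9 arrays, which includes the wide frontonasal values of ISL1. The missed call is therefore not read as a like ISL1 signal in mandibular and maxillary pools, whose values lay apart. LHX3 had means of 61.5, 51.1 and 62.2 in mandibular, maxillary and frontonasal pools. CHAT had 54.4, 43.8 and 46.7, and SLC18A3 had 35.4, 31.5 and 31.9, and none of these was called. MNX1, a motor neuron gene, was below background throughout.

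The summed signal of 13 general neuron genes was 1571 to 1768 in mandibular, 799 to 826 in maxillary and 887 to 1527 in frontonasal pools, with 7 to 9 of them above background on any array. This sum includes ISL1 again. NEUROD1 and SYT1 were below background throughout. Of these 13, STMN2 was called between mandibular and maxillary pools (1.63, limma adjusted p = 0.0254), where 0.263% of all probe sets were called. NEFM (1.37, limma adjusted p = 0.0605) and DCX (0.56, limma adjusted p = 0.59) were also higher in mandibular pools and were not called. NEUROD1 (-0.23), GAP43 (-0.11) and SYT1 (-0.09) went the other way. The median of the 13 was 0.20, against 0.01 over all genes. In the frontonasal comparison, where 5.1% of all genes were called, 3 of the 13 were called, all higher. They were NEUROG1 (1.13), NEUROG2 (1.26) and ELAVL4 (0.67, limma adjusted p = 0.00133, 0.000739 and 0.0457). Of these, NEUROG2 was below background throughout, and NEUROG1 was above it on 1 frontonasal array alone. The 8 sympathoadrenal genes summed to 243 to 281 in mandibular, 260 to 282 in maxillary and 482 to 639 in frontonasal pools. CHGA, which encodes chromogranin A, had means of 41.4, 52.7 and 337.3 and made up most of the mean frontonasal sum. It was the 1 gene of the 8 called in the frontonasal comparison (2.46, limma adjusted p = 0.000148). The median difference of the 8 there was 0.08, so the higher sum is not read as a rise of the list. DBH, the enzyme that makes noradrenaline, had 46.2, 45.7 and 39.6, GATA3 had 29.7, 44.0 and 13.3, and CHGB was below background throughout. The summed signal of 12 muscle genes, read beside CHODL, was 661 to 796, 551 to 625 and 970 to 1361 in the same order. Its members differed, with MYL4 at 126, 160 and 605 and PAX7 at 3.21, 3.25 and 78.8 called higher in the frontonasal mass. PAX7 was below background on all arch arrays. MYF5, at 54.8, 51.1 and 22.7, was called lower (limma adjusted p = 0.00388). MYOD1 had 17.9, 33.1 and 2.08 and was above background on 2 maxillary arrays alone. By their means NKX2-5, at 77.7, 3.88 and 31.1 ± 51.0 (SD, n = 3), and TNNT2, at 111.7, 27.2 and 59.9 ± 48.7, were highest in mandibular pools, as CHODL was. Both were below background on all maxillary arrays, and NKX2-5 was above it on 1 frontonasal array. None of the 12 was called between mandibular and maxillary pools. For NKX2-5 and TNNT2 the SE (0.61 and 0.40) includes the wide frontonasal values. Their missed calls are therefore not read as a like signal in mandibular and maxillary pools. The part of these cell types in the signals of the 5 genes was not tested.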

How the data were processed

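The deposited values are linear probe set intensity values of 38535 probe sets on 9 arrays, made from 500 ng of total RNA with 2-cycle labelling, per the labels' protocols. How probes were summarised was not given in the sources used here. With 2% of the values trimmed at each end, every array had a mean of 150, so the authors had already scaled them.

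After removal of 96 control probe sets, array medians were made equal (scaling factors 0.953 to 1.04). Tests used log2(signal + 16). Background was the 95th percentile of 598 viral and reporter probe sets, at 31.3 to 36.8. The number of arrays limits the precision.

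Gene names came from the platform annotation, in which 27168 of those tested had 1 gene, 177 several and 11094 none. Symbols were updated and neighbours found through a RefSeq gene table of assembly GRCg7b, where 26853 of the 27168 were found. A gene was read by its brightest probe set on average. Levels of different probe sets are not compared.

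All 9 arrays entered 1 limma 3.58.1 model (R 4.3.3) of group means, with 6 residual degrees of freedom and Benjamini-Hochberg adjustment over 38439 probe sets. The tested contrast was the frontonasal mass minus the mean of both arch prominences, which is orthogonal to the contrast that chose the genes. The p-values measure the spread between pools. Replicate numbers were not treated as pairs in this model, and an alternative fit had them as a block. Deviations of same-numbered pools correlated at 0.017 to 0.12, with 1 of 9 pairs over 0.1. The best partner of a pool had the same number in 18 of 18 comparisons. The fit was tested on simulated data.

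The 5 genes and all lists were chosen with earlier results of these data known. The text names the 5 genes, the 3 nearest profiles of each, 2 neighbours on each side, and at most 4 called genes of each related list and contrast. Other values named, such as receptors, WSCD1, CYP7A1 and markers, were chosen after their values were seen. Alternatives were the pseudocount (1 and 64), quantile normalization, values as deposited, leaving out the dimmest 40% of probe sets, the replicate number as a block, limma's trend and robust options, a fit of the 6 arch arrays alone, and leaving out each pool.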

Additional observations from a re-analysis of the deposited data

How the results depend on the processing

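The frontonasal comparison called 1229 probe sets, 760 (without frontonasal pool 1) to 1193 with 1 pool left out, and 1125 with the replicate number as a block. The mandibular to maxillary comparison called 101. It called 35 with a pseudocount of 1, 152 without the dimmest 40% of probe sets and 48 with the replicate block. With 1 pool left out it called 15 (without mandibular pool 1) to 178 (without frontonasal pool 2). Leaving out a frontonasal pool keeps every mandibular minus maxillary difference as it was. It changes the shared estimate of the spread and its degrees of freedom alone. The cause of the other shifts was not tested. In all 18 comparisons of a pool with another group, its deviations correlated best with the pool of the same number, a hint from the data and not the design.

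The mandibular minus maxillary, mandibular minus frontonasal and tested frontonasal differences of the 5 genes kept their signs in all alternatives run. The maxillary minus frontonasal difference of CHODL did not. It was 0.10 and ran from -0.15 (without frontonasal pool 1) to 0.34 (without frontonasal pool 2) for the brighter probe set, and from -0.03 to 0.24 for the dimmer one. The calls of NPY, both CHODL probe sets and the brighter WSCD2 probe set held in all alternatives run, with adjusted p of 4.44e-05 to 0.00235 for NPY, 0.00228 to 0.0416 for the brighter CHODL probe set and 0.00142 to 0.0245 for WSCD2. For CHODL and WSCD2 the mandibular signal that chose the genes enters these calls. Their calls do not set the frontonasal mass apart from the maxillary prominence. The dimmer WSCD2 probe set is left out with the dimmest 40%. AKR1D1 was called in none of 16 (adjusted p 0.0921 to 0.362). LRRC17 was called in 6 of 16, with the lowest adjusted p of 0.0198 without the dimmest probe sets and the highest of 0.153 without frontonasal pool 3. On the log2 scale the mandibular minus maxillary difference ranged from 1.37 to 1.97 for NPY, 2.15 to 2.43 for CHODL, 1.89 to 2.37 for AKR1D1, -2.68 to -1.80 for LRRC17 and -1.35 to -0.83 for WSCD2. Signals near background limit the frontonasal value of NPY and the dimmer CHODL and WSCD2 probe sets.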

Other observations

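A pair of genes in the related lists came closest to the threshold between mandibular and maxillary pools, and they were chosen after their values were seen. HAPLN1, which links hyaluronan to proteoglycans in the extracellular matrix, had mean signals of 330.7 ± 23.7 (SD, n = 3) in mandibular, 168.7 ± 6.03 in maxillary and 198.1 ± 49.9 in frontonasal pools. Its maxillary mean was the lowest, but its frontonasal mean lay nearer the maxillary than the mandibular one, unlike that of AKR1D1. The mandibular minus maxillary difference was 0.91 on the log2 scale and was not called (limma adjusted p = 0.0979), but it was called without the dimmest 40% of probe sets (0.037) and in a fit of the 6 arch arrays alone (0.0181). HS3ST2, a heparan sulfate sulfotransferase, differed by 1.08 and was not called either (limma adjusted p = 0.0979), except without the dimmest 40% (0.0327). COLEC11 had 79.2 in mandibular and 12.2, below background, in maxillary pools, and its difference of 1.75 was called in the fit of the 6 arch arrays (limma adjusted p = 0.0109) and not in that of all arrays (0.645). VCAN, which encodes the matrix proteoglycan versican, had 841 ± 129, 1345 ± 96.7 and 1433 ± 337 in the same order. Its difference between mandibular and maxillary pools was -0.68 (limma adjusted p = 0.311).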
